A study of Homo sapiens with 4 samples.

Results

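The genes described here are the cell surface and enzyme markers by which breast tumor-initiating cells (TICs) are commonly recognised. They are CD44, CD24, PROM1 (CD133) and EPCAM, with 6 aldehyde dehydrogenases, ALDH1A1, ALDH1A3, ALDH1B1, ALDH2, ALDH3A2 and ALDH7A1. They were chosen by name, as every probe set listed for exactly 1 of these 10 symbols, which gave 27 of the 19070 probe sets with a single gene and 10 of the 11963 genes measured. The study asked how the SUMO ligase PIAS1, a transcriptional repressor, acts on gene expression and on TICs in breast cancer cells.

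RNA came from MDA-MB231, a human breast cancer line of mesenchymal character, in which a lentivirus had been stably integrated under puromycin selection. The control shRNA cells carry a scrambled hairpin and the PIAS1 shRNA2 cells a hairpin against PIAS1, both driven by the U6 promoter, so virus and selection are common to all arrays. Cells were kept for 30 h either in DMEM with 10% FBS (DMEM) or in stem cell media (SCM), a serum-free DMEM/F-12 mixture with EGF, basic FGF, insulin and albumin. The resulting 4 conditions were control shRNA in DMEM, PIAS1 shRNA2 in DMEM, control shRNA in SCM and PIAS1 shRNA2 in SCM, each read on 1 Affymetrix human genome array. No ratio below therefore has a replicate check or a p-value, and the number of arrays limits the precision. Loss of serum, added growth factors and the change of base medium cannot be told apart, a second hairpin was not on the arrays, and in bulk RNA more cells of a type and more RNA per cell cannot be told apart either.

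CD44 is a receptor for hyaluronan, and CD24 is a small, heavily glycosylated, lipid-anchored surface protein. Breast TICs were first described as cells with high CD44 and low CD24, and PROM1 and EPCAM have served as further surface markers of progenitor and epithelial tumor cells. Aldehyde dehydrogenases oxidise aldehydes to acids. Their activity is measured in living cells by the ALDEFLUOR assay, and the ALDH1A enzymes make retinoic acid from retinal, the last step of a pathway that ends at nuclear retinoic acid receptors. The assay reads the summed activity of several family members, so the mRNA of each member is a separate question.

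The promoter windows of 3 of these genes are shown because the study concerns DNA methylation, which falls on CG dinucleotides, and because the first pair, sister genes with the same enzymatic reaction, were read above the background floor (ALDH1A3) and under it (ALDH1A1) on every array. Each window runs 5′ to 3′ on the strand of the gene, with 250 bases before and 50 after the RefSeq start in GRCh38.p14, and every CG is in capitals. The arrays measured no methylation.
ALDH1A3: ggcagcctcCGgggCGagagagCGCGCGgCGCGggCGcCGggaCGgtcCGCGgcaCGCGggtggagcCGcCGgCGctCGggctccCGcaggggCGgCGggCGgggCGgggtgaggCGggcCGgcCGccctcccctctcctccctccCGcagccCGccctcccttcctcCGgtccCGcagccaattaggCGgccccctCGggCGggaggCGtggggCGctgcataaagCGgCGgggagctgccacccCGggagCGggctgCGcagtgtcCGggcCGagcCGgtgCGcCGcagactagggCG
ALDH1A1: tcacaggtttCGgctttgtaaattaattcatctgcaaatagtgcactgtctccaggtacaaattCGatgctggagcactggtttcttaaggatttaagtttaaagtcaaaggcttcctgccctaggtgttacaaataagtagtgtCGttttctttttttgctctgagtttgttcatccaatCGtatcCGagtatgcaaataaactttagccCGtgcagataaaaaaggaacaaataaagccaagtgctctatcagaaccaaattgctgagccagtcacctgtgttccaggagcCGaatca
CD44: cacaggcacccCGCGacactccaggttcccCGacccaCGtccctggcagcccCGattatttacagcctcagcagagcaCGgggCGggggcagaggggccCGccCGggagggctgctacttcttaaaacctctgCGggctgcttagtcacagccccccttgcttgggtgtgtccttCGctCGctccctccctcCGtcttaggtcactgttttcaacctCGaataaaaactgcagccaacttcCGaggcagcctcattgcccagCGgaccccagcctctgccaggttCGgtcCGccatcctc

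The ALDH1A3 window, chr15:100879581-100879880 on the plus strand, held 46 CG and was 81.7% G or C. Of all 35116 windows of that length, whose median was 14 CG, 2.89% held at least as many. The ALDH1A1 window, chr9:72953004-72953303 on the minus strand, held 7 CG at 40.3% G or C, and 39.3% of all windows held no more than that. The CD44 window, chr11:35138921-35139220 on the plus strand, was between them with 18 CG at 63.3% G or C. Searched on both strands, the GC box GGGCGG was found 6 times in the ALDH1A3 window and 2 times in that of CD44, against a share of 45% of all windows with at least 1 match. The CCAAT box was found 1 time in each of the ALDH1A windows, and is present in 34.6% of all windows. The nuclear receptor half-site AGGTCA was found 1 time in the CD44 window and in 13.8% of all windows. In all, 14 windows of 8 of the 10 genes were available. The 4 windows of PROM1, which was also under the floor on every array, held 18, 32, 24 and 6 CG. Whether CG content goes with signal was not tested. None of the 14 held TATAAA, found in 11.5% of all windows. One start of ALDH3A2 had the E-box CACGTG, found in 7.26% of all windows, and one start of PROM1 had the AP-1 letters TGACTCA, found in 4.95%. These are letter matches and say nothing of whether a factor binds there.

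Each array had been scaled before deposit, so the even median signals, 569 to 605, are no check of array quality. Of the 22277 probe sets, 63.4% to 67.0% were above a background floor of 197. Signals are MAS5 intensities in arbitrary units. The floor came from genes of other tissues, low signals were raised to it in every ratio, and a gene was called higher or lower at 2-fold or more. The PIAS1 signal of its brightest probe set was 1383 in control shRNA and 512 in PIAS1 shRNA2 cells in DMEM, and 1814 and 671 in SCM. That was 37.0% of control in both media, which checks the shRNA labels but not the medium labels. Another PIAS1 probe set read 23.8% of control in DMEM and 31.5% in SCM. The last read 77.9% in SCM, and in DMEM, where its PIAS1 shRNA2 signal of 158 was under the floor, the ratio to control was at most 0.288. Of 11 mesenchymal markers, 10 or 11 were above the floor on each array, with summed signals of 198076 to 263591. Luminal epithelial markers were above the floor for 10 or 11 of 14, and their summed signals were 17942 and 16085 in DMEM against 39003 and 37632 in SCM. Of the 11, 8 rose 2-fold in SCM in each line, among them TFF1 and KRT19, where 10.6% and 10.9% of all genes did. The 8 were not all the same, as ESR1 passed 2-fold in control shRNA cells only and XBP1 in PIAS1 shRNA2 cells only. The median log2 ratios of the 11 were 1.71 and 1.49, control shRNA first. GATA3 read 6040 and 4765 in DMEM and 3103 and 1718 in SCM, lower in SCM in both lines at log2 ratios of -0.96 and -1.47, and CDH1 (E-cadherin) and FOXA1 were under the floor on all arrays. Of the 6 basal markers measured 3 were above the floor on each array, with summed signals of 11337 and 13390 in DMEM against 31186 and 33651 in SCM, and the keratins KRT5 and KRT14 were under it throughout. Most of that rise was LAMB3, at 5116 and 6209 in DMEM and 24201 and 26367 in SCM, control shRNA first. In the same order EGFR read 5538 and 6627 in DMEM and 5857 and 6080 in SCM. ACTA2 read 510 and 423 in DMEM and 1046 and 908 in SCM. Of the 8 leukocyte markers 3 or 4 were above the floor, with sums of 1367 to 2300. HBB, a blood gene of that list, read 215 to 430. CD14, of the same list, read 627 and 355 in DMEM and 1172 and 961 in SCM, control shRNA first. A signal just above the floor, and perhaps one at the level of CD14, is therefore not proof that a gene is expressed. EPCAM, at 486 to 1067, lies within the range of CD14. The part of the luminal and basal markers in the differences between media below was not tested.

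Of the 10 genes, 8 were above the floor on all 4 arrays and 2, PROM1 and ALDH1A1, were under it on all 4. The medium made the larger differences, as it did over all genes. Of all genes compared, 10.6% were called higher and 10.8% lower in SCM in control shRNA cells, and 10.9% and 10.4% in PIAS1 shRNA2 cells. With PIAS1 shRNA2 1.43% were called higher and 0.762% lower in DMEM, and 2.14% and 1.37% in SCM. Under SCM conditions CD24, ALDH1A3 and ALDH3A2 rose and ALDH1B1 fell in control shRNA and in PIAS1 shRNA2 cells alike. Between the shRNAs, only ALDH1A3 in SCM passed 2-fold, and in DMEM no gene of the 8 did. ALDH1A3 was also the gene of the 8 with the widest range over the arrays.

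**Figure D1:**
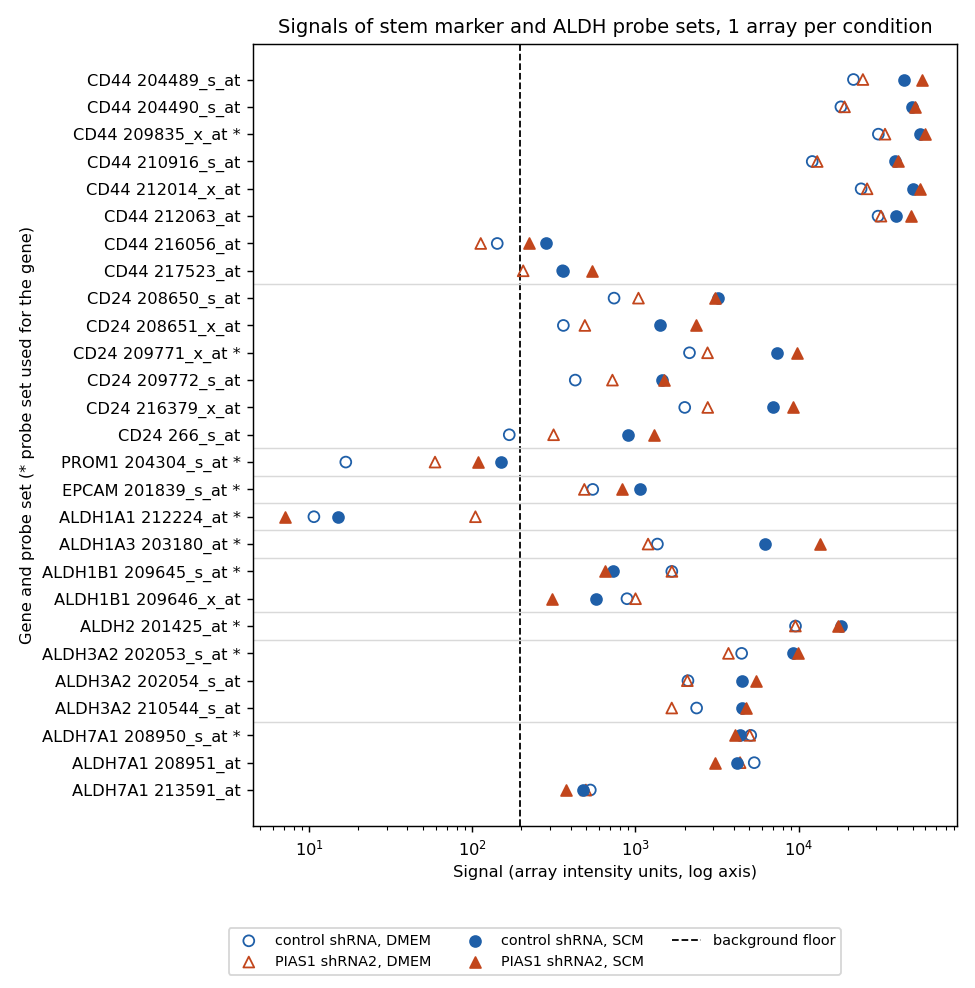
Signals of the 27 probe sets of the 10 genes (array intensity units, log axis) on each of the 4 arrays, with open marks for DMEM, filled marks for SCM, circles for control shRNA and triangles for PIAS1 shRNA2, and the background floor of 197 as a dashed line. The filled marks of CD24, ALDH1A3 and ALDH3A2 lie to the right of the open ones and those of ALDH1B1 to the left, while PROM1 and ALDH1A1 lie under the floor throughout.

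Among the surface markers, CD44 (chromosome 11, 35139171 to 35232402 in GRCh38.p14) was above the floor on every array. Its probe set with the highest mean, 209835_x_at, gave 30876 in control shRNA cells and 33912 in PIAS1 shRNA2 cells in DMEM, and 55568 and 60016 in SCM. Both SCM arrays were above both DMEM arrays, by 1.80-fold in control shRNA and 1.77-fold in PIAS1 shRNA2 cells, short of the 2-fold line. The 8 CD44 probe sets differed in this. Their SCM over DMEM ratio ran from 0.999 to 3.22 in control shRNA cells, with 4 of 8 at 2-fold or more, and from 1.13 to 3.11 in PIAS1 shRNA2 cells, with 5 of 8. The 1.13 is a lower bound, since that probe set, 216056_at, was under the floor in DMEM in PIAS1 shRNA2 cells with a signal of 113. The highest ratios in both belonged to one bright probe set, 210916_s_at, which read 12135, 13018, 39124 and 40479 in the order control shRNA DMEM, PIAS1 shRNA2 DMEM, control shRNA SCM and PIAS1 shRNA2 SCM. The probe set 212063_at, bright and without a mark for shared sequence, read 30741, 32024, 39637 and 49062, or 1.29-fold and 1.53-fold. CD44 is spliced into many isoforms, and which of them a probe set reads was not given in the sources used here. Between the shRNAs the 7 CD44 probe sets above the floor in DMEM gave 0.573 to 1.14, and the 8 in SCM 0.789 to 1.51. The low DMEM value and the high SCM value both came from a dim probe set, 217523_at, with CD44 signals of 358, 205, 357 and 541. None of these passed 2-fold.

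CD24 (chromosome 6, 106969831 to 106976855) rose with SCM in both lines on every probe set. Its main probe set, 209771_x_at, read 2144 in control shRNA and 2768 in PIAS1 shRNA2 cells in DMEM, against 7361 and 9792 in SCM. The media did not overlap, and the ratios were 3.43-fold in control shRNA and 3.54-fold in PIAS1 shRNA2 cells. Over its 6 probe sets the CD24 ratio was 3.41 to 4.54 in the former and 2.08 to 4.80 in the latter, 6 of 6 at 2-fold or more in each. The 4.54 came from 266_s_at, which was under the floor in control shRNA cells in DMEM, so it is a lower bound. With PIAS1 shRNA2 the CD24 signal was 1.29-fold to 1.69-fold that of control in DMEM, above 1 on 6 of 6 probe sets, with a lower bound of 1.60 on 266_s_at, and 0.951 to 1.67 in SCM, above 1 on 5 of 6. None reached 2-fold. Probe sets of CD24 share sequence, so their number is not a number of measurements.

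EPCAM (chromosome 2, 47369311 to 47387020), an epithelial adhesion molecule, has 1 probe set here and read 547, 486, 1067 and 831 in the order control shRNA DMEM, PIAS1 shRNA2 DMEM, control shRNA SCM and PIAS1 shRNA2 SCM. Both SCM signals were above both DMEM signals, by 1.95-fold and 1.71-fold. EPCAM was 0.888 of control with PIAS1 shRNA2 in DMEM and 0.779 of control in SCM, inside the 2-fold limits. PROM1 (chromosome 4, 15968228 to 16084023), a membrane protein of cell protrusions, read 16.7, 59.0, 150 and 108 in the same order. All were under the floor of 197, so neither a presence nor a difference of PROM1 mRNA could be read at this brightness.

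The aldehyde dehydrogenases begin with the retinal-oxidising pair. ALDH1A1 (chromosome 9, 72900671 to 72953053), the enzyme with which the ALDEFLUOR assay is most often linked, read 10.7 in control shRNA and 104 in PIAS1 shRNA2 cells in DMEM, and 15.0 and 7.12 in SCM. Each value was under the floor, and a ratio of such signals was not taken. ALDH1A3 (chromosome 15, 100879831 to 100916626), its sister enzyme, was above the floor on every array, with signals of 1364 in control shRNA and 1195 in PIAS1 shRNA2 cells in DMEM, 6220 in control shRNA and 13547 in PIAS1 shRNA2 cells in SCM. The DMEM arrays were close to each other, control shRNA in SCM was higher, and PIAS1 shRNA2 in SCM was highest. ALDH1A3 was thus 4.56-fold higher in SCM than in DMEM in control shRNA cells, rank 124 from the top of 9019 genes, and 11.3-fold higher in PIAS1 shRNA2 cells, rank 27 of 9143.

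PIAS1 shRNA2 over control shRNA was 0.876 for ALDH1A3 in DMEM and 2.18 in SCM, rank 143 from the top of 9171 genes in SCM. On the log2 scale these were -0.19 and 1.12, a difference of 1.31 between the media. By the limit of 1 on that scale, 1 of the 8 genes, ALDH1A3, had a larger ratio in SCM, where 2.37% of 8424 genes did, and 0 had a smaller one, where 2.62% did. A single probe set, 203180_at, carries these ALDH1A3 values, and no replicate array bears on them.

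The other family members fell into rising, near-level and falling genes. ALDH3A2 (chromosome 17, 19648136 to 19677596), the microsomal enzyme that oxidises long-chain fatty aldehydes, read 4479 and 3719 in DMEM and 9198 and 9910 in SCM, control shRNA first in each. It was 2.05-fold higher in SCM in control shRNA cells and 2.66-fold higher in PIAS1 shRNA2 cells. Its 3 probe sets gave 1.89 to 2.13 in the former, so that the gene sits on the 2-fold line there, and 2.63 to 2.87 in the latter. With PIAS1 shRNA2 they gave 0.704 to 0.992 of control in DMEM and 1.07 to 1.23 in SCM, on opposite sides of 1 but within 2-fold.

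ALDH2 (chromosome 12, 111766933 to 111817532), the mitochondrial enzyme that clears acetaldehyde, read 9582 in control shRNA and 9564 in PIAS1 shRNA2 cells in DMEM, and 18306 and 17469 in SCM. The SCM arrays were above the DMEM arrays by 1.91-fold and 1.83-fold, near but not past 2-fold. PIAS1 shRNA2 over control shRNA was 0.998 for ALDH2 in DMEM and 0.954 in SCM.

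ALDH1B1 (chromosome 9, 38392702 to 38398661), a mitochondrial enzyme related to ALDH2, went the other way. Its main probe set read 1671 and 1673 in DMEM and 723 and 655 in SCM, control shRNA first, or 2.31-fold lower in SCM in control shRNA and 2.55-fold lower in PIAS1 shRNA2 cells. Its second probe set, 209646_x_at, read 887, 1001, 570 and 308. That was 0.643 of the DMEM level in control shRNA cells, inside the 2-fold limit, and 0.307 in PIAS1 shRNA2 cells. Both ALDH1B1 probe sets were thus lower in SCM, but in control shRNA cells only one passed 2-fold. With PIAS1 shRNA2 the log2 ratios of the main and second ALDH1B1 probe sets were 0.00 and 0.17 in DMEM and -0.14 and -0.89 in SCM.

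ALDH7A1 (chromosome 5, 126541841 to 126595219), which acts in lysine breakdown and betaine synthesis, was the most level. It read 5093 and 5018 in DMEM and 4377 and 4081 in SCM, control shRNA first. Its 3 probe sets were below 1 in each comparison, at 0.781 to 0.906 in SCM over DMEM in control shRNA cells, 0.707 to 0.813 in PIAS1 shRNA2 cells, 0.819 to 0.985 with PIAS1 shRNA2 in DMEM and 0.741 to 0.932 in SCM. None of these passed 2-fold.

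**Figure D2:**
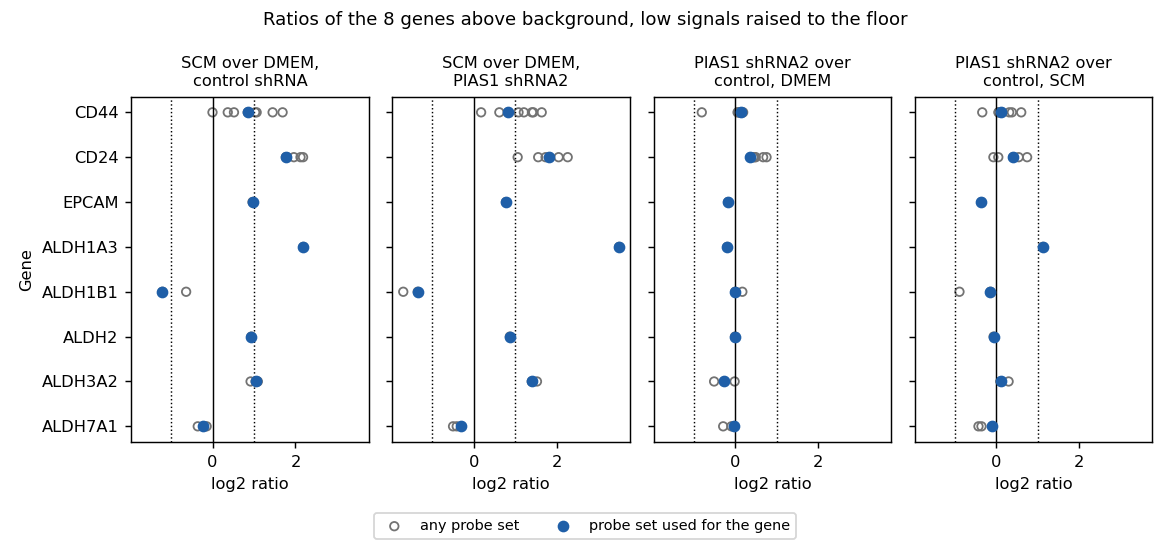
Log2 ratios of the 8 genes above the floor in the 4 comparisons, with the probe set used for the gene filled and every probe set above the floor open; dotted lines mark 2-fold. In the filled marks SCM over DMEM lies at 0.78 to 3.50 for CD44, CD24, EPCAM, ALDH1A3, ALDH2 and ALDH3A2. It lies at or under -0.22 for ALDH1B1 and ALDH7A1. Open marks of CD44 reach down to -0.00 in control shRNA and 0.18 in PIAS1 shRNA2 cells, and those of ALDH7A1 up to -0.14 in control shRNA cells. PIAS1 shRNA2 over control shRNA passes 2-fold for ALDH1A3 in SCM, at 1.12, and for no other of the 8.

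In PIAS1 shRNA2 over control shRNA, these markers stood near the middle of all genes. In DMEM 0 of the 8 were called higher and 0 lower, where 1.43% and 0.762% of 8798 genes were. Their median log2 ratio was -0.01, beside 0.01 for all genes, and all 8 lay between the 5th and 95th percentiles of all genes, -0.54 and 0.63. In SCM 1 of 8 was higher, ALDH1A3, and 0 were lower, where 2.14% and 1.37% of 9171 genes were. The median was 0.02 beside 0.00, and 7 of the 8 lay between -0.65 and 0.69. Of all genes called in DMEM 65.3% were higher in PIAS1 shRNA2 cells, a share that was 54.5% with arrays scaled to a common median and 54.7% after quantile normalization.

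Between media the same genes stood further from the middle. In control shRNA cells 3 of 8 were called higher in SCM and 1 lower, where 10.6% and 10.8% of 9019 genes were. In PIAS1 shRNA2 cells 3 of 8 were higher and 1 lower, where 10.9% and 10.4% of 9143 genes were. The medians of the 8 log2 ratios were 0.95 and 0.85, beside 0.03 and -0.01 for all genes, and 6 of the 8 lay between the 5th and 95th percentiles in each. CD44, EPCAM and ALDH2 were between 1.7-fold and 2-fold in both. In both lines together, 3 of 8 were higher in each, where 7.74% of 8617 genes were, and 1 of 8 lower in each, where 7.89% were. The 8 had the same direction in control shRNA and PIAS1 shRNA2 cells, 6 above and 2 below 0. These medium ratios share their arrays with the PIAS1 shRNA2 ratios above, so they are not separate evidence on the same gene.

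**Figure D3:**
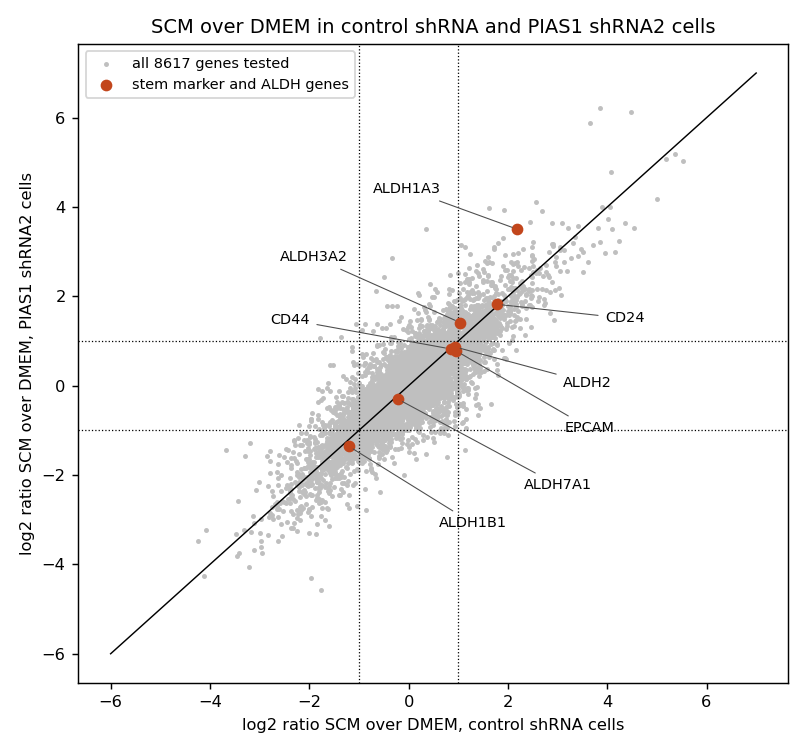
Log2 ratio of SCM over DMEM in control shRNA cells (x) against PIAS1 shRNA2 cells (y) for 8617 genes in grey and the 8 stem marker and ALDH genes in red; the solid line marks equal ratios and dotted lines 2-fold. ALDH1A3, at 2.19 and 3.50, lies above the line, CD24 at 1.78 and 1.82 on it, and CD44, EPCAM and ALDH2 cluster just under 2-fold.

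The remaining aldehyde dehydrogenases gave a mixed picture. Of 11 measured, 9 were above the floor in SCM over DMEM in control shRNA cells, with 4 higher, 0 lower and a median log2 ratio of 0.48. In PIAS1 shRNA2 cells 2 were higher, ALDH3A1 and ALDH6A1, and 1 lower, ALDH4A1, also with a median of 0.48. Among all genes 10.6% were higher and 10.8% lower in control shRNA cells, and 10.9% and 10.4% in PIAS1 shRNA2 cells. ALDH6A1, of valine and pyrimidine breakdown, read 2525, 2492, 6096 and 5123 in the order control shRNA DMEM, PIAS1 shRNA2 DMEM, control shRNA SCM and PIAS1 shRNA2 SCM, and rose in both lines, by 1.27 and 1.04 on the log2 scale, the scale of every difference given for the lists that follow. ALDH3A1, an enzyme of the cornea and of detoxification, read 25.5, 221, 517 and 610, at least 1.39 higher in control shRNA cells, where its DMEM signal was under the floor, and 1.46 higher in PIAS1 shRNA2 cells. ALDH3B1 read 1558, 1146, 4281 and 2032 and ALDH1L1, a folate enzyme, 279, 215, 709 and 426, so both rose in control shRNA cells, by 1.46 and 1.34, and were 0.83 and 0.99 higher in PIAS1 shRNA2 cells. With PIAS1 shRNA2, 1 of the 8 above the floor was higher in DMEM, ALDH4A1, of proline breakdown, at a log2 ratio of 1.01. In SCM 1 of 9 was lower, ALDH3B1 at a log2 ratio of -1.07, and the medians were -0.04 and -0.23. Over all genes 1.43% were higher in DMEM and 1.37% lower in SCM.

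Beyond the family, 15 of 18 measured alcohol, aldo-keto and aldehyde oxidising enzymes were above the floor. In SCM over DMEM 3 were higher (AKR1C1, AKR1C3 and CBR4) and 2 lower (AOX1 and CBR3) in control shRNA cells, with a median of 0.73. In PIAS1 shRNA2 cells 3 were higher (AKR1C1, AKR1C2 and AKR1C3) and 1 lower (AOX1), with a median of 0.28. The shares of all genes were 10.6% higher and 10.8% lower in control shRNA cells, and 10.9% and 10.4% in PIAS1 shRNA2 cells. AKR1C1, AKR1C2 and AKR1C3 reduce steroids and aldehydes. AKR1C3 read 4858, 4310, 12049 and 14913 and AKR1C1 1087, 929, 2618 and 3913, and both rose in both lines, AKR1C3 by 1.31 and 1.79 and AKR1C1 by 1.27 and 2.07. AKR1C2, at 1094, 729, 2183 and 4173, passed 2-fold in PIAS1 shRNA2 cells at 2.52 and was just short of it in control shRNA cells. These genes are near-identical in sequence, so which of them each probe set read is uncertain. AOX1, aldehyde oxidase, which can also oxidise retinal, read 4398, 3744, 1692 and 692 and fell in both lines, by 1.38 and 2.44 on the log2 scale. AOX1 was also lower with PIAS1 shRNA2 in SCM, at -1.29. With AKR7A3 it was 1 of 2 lower in its list there, where 1.37% of all genes were, with none called in DMEM. The medians were 0.05 in DMEM and 0.00 in SCM.

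Retinoid genes upstream and downstream of ALDH1A3 went in both directions. In SCM over DMEM 5 of 20 were higher in control shRNA cells (BHLHE40, CRABP2, DHRS3, PLAAT4 and the receptor RARA), with a median of 0.39, and 2 of 18 in PIAS1 shRNA2 cells (BHLHE40 and TGM2), with a median of 0.41. The same 2 were lower in both, FABP5 and CYP26B1, an enzyme that degrades retinoic acid. Among all genes 10.6% were higher and 10.8% lower in control shRNA cells, and 10.9% and 10.4% in PIAS1 shRNA2 cells. BHLHE40, a transcription factor that retinoic acid can induce, read 5382, 6344, 29248 and 27818 and rose by 2.44 and 2.13. CRABP2, which carries retinoic acid to its receptors, read 295, 393, 851 and 567 and rose in control shRNA cells, by 1.53, with 0.53 in PIAS1 shRNA2 cells. FABP5, a fatty acid carrier that also binds retinoic acid, read 6821, 8489, 1752 and 2365, and fell by 1.96 and 1.84. With PIAS1 shRNA2 0 of 18 were higher and 1 lower in DMEM, where 1.43% and 0.762% of all genes were. In SCM 0 of 20 were higher and 2 lower, where 2.14% and 1.37% of all genes were. The medians were -0.03 and -0.18. RARRES2, the secreted chemoattractant chemerin, was lower in both, from 4167 to 1625 in DMEM and from 3189 to 1021 in SCM, log2 ratios of -1.36 and -1.64. The other was DHRS3, which turns retinal back to retinol, at -1.14 in SCM.

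For CD44, 22 of 24 measured partners (enzymes that make or cut hyaluronan, linkers to the cytoskeleton, sheddases and splicing factors) were above the floor. With PIAS1 shRNA2 0 were higher and 0 lower in either medium, with medians of 0.08 and 0.00. The shares of all genes were 1.43% higher and 0.762% lower in DMEM, and 2.14% and 1.37% in SCM. Between media 5 rose (MMP9, MMP14, ANK3, CEMIP and SRGN) and 5 fell (HMMR, SRSF1, EZR, NF2 and TRA2B) in control shRNA cells, with a median of 0.03. In PIAS1 shRNA2 cells 7 rose and 4 fell (HMMR, SRSF1, EZR and TRA2B), with a median of 0.33. Among all genes 10.6% rose and 10.8% fell in control shRNA cells, and 10.9% and 10.4% in PIAS1 shRNA2 cells. The proteases MMP9, which docks on CD44, and MMP14, which sheds it, rose in both lines. MMP9 read 398, 615, 2947 and 5540, or 2.89 and 3.17 on the log2 scale, and MMP14 read 5714, 4279, 32217 and 29804, log2 ratios of 2.50 and 2.80. HMMR, another hyaluronan receptor, which also acts at the mitotic spindle, fell from 2779 to 796 and from 2483 to 402. The splicing factor SRSF1 fell from 17938 to 3973 in control shRNA and from 20730 to 4553 in PIAS1 shRNA2 cells.

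Of the EPCAM partners, 4 of 13 were higher in SCM (CLDN3, CLDN4, CLDN7 and SPINT1) and 1 lower (LEF1) in control shRNA cells, where 10.6% and 10.8% of all genes were, at a median of 0.63. In PIAS1 shRNA2 cells 3 of 12 were higher (CLDN4, CLDN7 and SPINT1) and 0 lower, where 10.9% and 10.4% of all genes were, at a median of 0.54. The others compared were not called. For CLDN1 and ST14 in control shRNA cells and CLDN3 in PIAS1 shRNA2 cells, 1 signal was under the floor. Their ratios are bounds, so a larger difference could not be read. CDH1 was under the floor on every array and was not compared. CLDN7, a tight junction protein that binds EPCAM, read 640, 635, 6788 and 4767, a rise of 3.41 and 2.91. SPINT1, an inhibitor of the epithelial protease matriptase, read 51.3, 26.8, 3323 and 5445. Its DMEM signals were under the floor, so SPINT1 rose by at least 4.08 and 4.79 on the log2 scale. TSPAN8, a tetraspanin found in complexes with EPCAM, differed between the shRNAs in both media, with 537 and 2100 in DMEM and 568 and 2929 in SCM, log2 ratios of 1.97 and 2.37. LEF1, a partner of beta-catenin, read 414, 434, 57.5 and 482. Its control shRNA signal in SCM was under the floor, so with PIAS1 shRNA2 in SCM LEF1 was higher by at least 1.29. In all 1 of 11 partners was higher with PIAS1 shRNA2 in DMEM and 2 of 13 in SCM, and 0 were lower. For all genes the shares higher were 1.43% and 2.14%, and the shares lower 0.762% and 1.37%. The medians of the partners were -0.07 and -0.22.

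Of 40 other stem and progenitor genes measured, 25 were compared between media in control shRNA cells and 29 in PIAS1 shRNA2 cells. In control shRNA cells 8 were higher in SCM and 3 lower (ABCG2, EZH2 and SNAI2), where 10.6% and 10.8% of all genes were. In PIAS1 shRNA2 cells 7 were higher and 4 lower (ABCG2, EZH2, SNAI2 and LGR5), where 10.9% and 10.4% of all genes were. The medians were 0.37 and 0.03. Of the 5 integrins listed, ITGA2, ITGB3 and ITGB4 rose in both lines, while ITGA6 was at log2 ratios of 0.37 and -0.02 and ITGB1 at 0.27 and 0.21. ITGA2 read 1752, 3145, 15962 and 18710, log2 ratios of 3.19 and 2.57. ITGB3 read 476, 923, 2671 and 3122, log2 ratios of 2.49 and 1.76, and ITGB4 read 1048, 1376, 5640 and 5973, log2 ratios of 2.43 and 2.12. EZH2, the Polycomb histone methyltransferase, fell from 3762 to 682 and from 3942 to 635. With PIAS1 shRNA2 3 of 28 were higher in DMEM, CXCR4, LGR5 and SNAI1, and 1 of 27 in SCM, CXCR4. The shares of all genes higher were 1.43% in DMEM and 2.14% in SCM. None of this list was lower with PIAS1 shRNA2 by 2-fold, and the medians were 0.23 and 0.08.

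**Figure D4:**
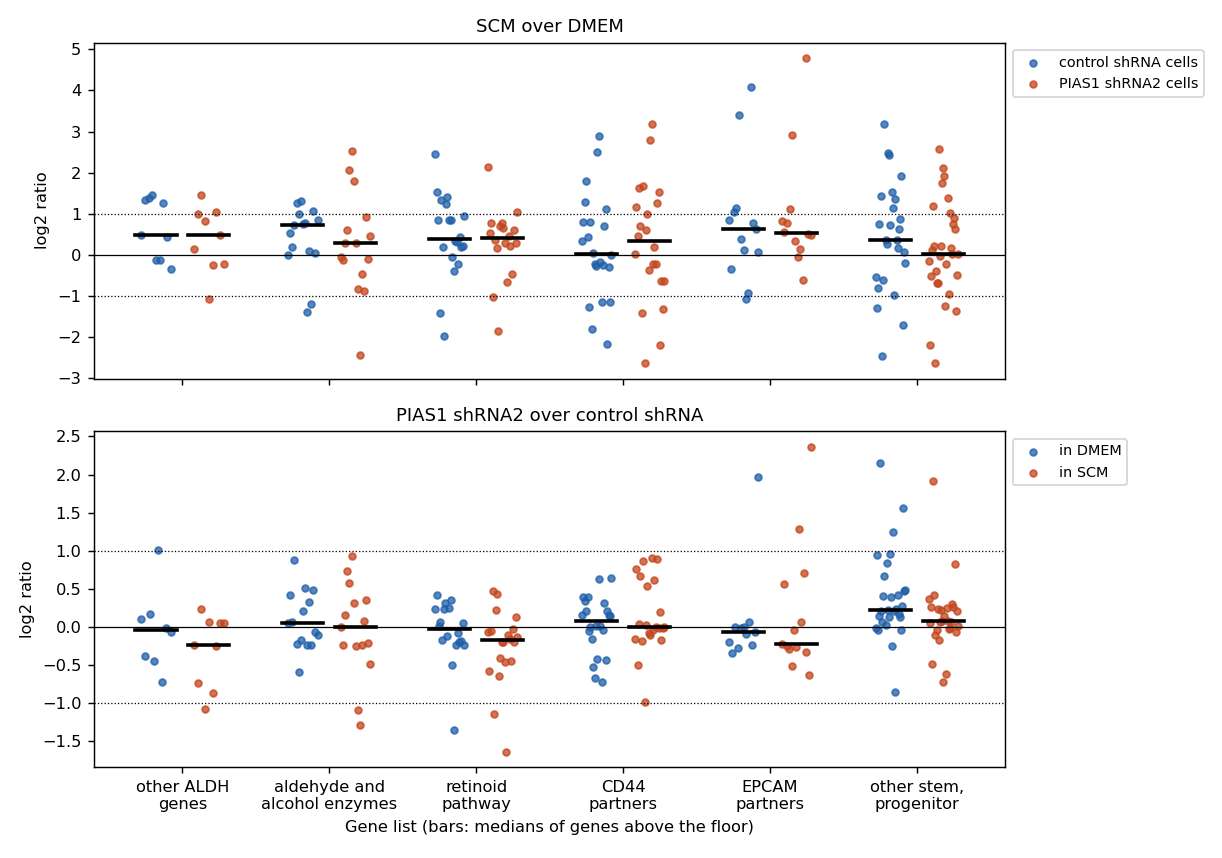
Log2 ratios of the genes of 6 lists above the floor, for SCM over DMEM (upper panel, control shRNA in blue and PIAS1 shRNA2 in red) and for PIAS1 shRNA2 over control shRNA (lower panel, DMEM in blue and SCM in red), with black bars for list medians and dotted lines for 2-fold. List medians lie at 0.03 to 0.73 between media and at -0.23 to 0.23 between shRNAs.

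The genes with the pattern most like that of ALDH1A3 were sought among 7586 others above the floor on all 4 arrays, by the root mean square difference of log2 signals, each centred on its own mean over the 4 arrays. SLC7A7, a cationic amino acid transporter, was nearest at 0.12, with signals of 355, 295, 1927 and 3748. EBI3, a subunit of interleukin-27 and interleukin-35, was at 0.20 with 710, 438, 2677 and 6692. H2AC6, a histone H2A gene, was also at 0.20 with 715, 904, 3540 and 7522. TMEM132A followed at 0.23 and RASSF2 at 0.26. In each of these 5 genes, as in ALDH1A3, PIAS1 shRNA2 in SCM was the highest array and control shRNA in SCM the next. That shared order follows from how the genes were picked, and over only 4 arrays a likeness of this kind is a description.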

How the data were processed

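Total RNA of MDA-MB231 cells with a control hairpin or with PIAS1 shRNA2, in DMEM or SCM, was read on 1 Affymetrix array per condition. The authors deposited an intensity per probe set, linear in scale, made with MAS5 per the submitters' processing notes, its version and settings being not given in the sources used here. Detection calls were not used here. Each array had been scaled, with a mean without the lowest and highest 2% of 2501 on every array. Array precision is limited by the number of arrays, 1 per condition.

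The array platform's gene annotation gave each probe set its gene. Of 22277, 19070 had 1 gene, 1043 had several and 2164 had none listed; the last 2 kinds were left out. By Entrez identifier 19058 were found in RefSeq (GRCh38.p14), and 0 symbols were updated. The deposited files name no genome build, so gene positions and promoter windows are those of GRCh38.p14. The value table had 0 columns of other samples.

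On each array the 75th percentile was taken over 107 probe sets for 67 genes of eye, pancreas, muscle, brain and other organs, and the highest of the 4 values served as the floor for all. Each gene took the values of the probe set whose mean log2 signal was highest, was compared where the brighter of both signals was above the floor, and called at 2-fold or more. No model was fitted, since the arrays of an shRNA differ in medium and are not replicates. Named genes were the 10 members with every probe set, PIAS1, up to 4 genes of each list with the largest log2 ratio in size among those at 2-fold, and the 5 genes most like the member of widest range. Other genes, such as ALDH4A1, CXCR4 and the marker genes, were named to spell out a count and were chosen after their values were seen. The members and lists were chosen with earlier results of these data known. The alternatives were other floors or none, common-median scaling, quantile normalization and other ways to join probe sets. Software was matplotlib 3.10.9, SciPy 1.17.1, pandas 2.3.3 and NumPy 2.4.6 under Python 3.11.15, and the ratio step was tested on simulated data.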

Additional observations from a re-analysis of the deposited data

Results flagged for a closer look

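PIAS1 shRNA2 cells were above their control in one medium and below it in the other for 3 genes. For ALDH1A3 the log2 ratio was 1.31 larger in SCM than in DMEM. For ALDH3A2 it was 0.38 larger, on a change from -0.27 to 0.11. For ALDH1B1 the difference was -0.14, from 0.00 in DMEM to -0.14 in SCM on its main probe set, and its DMEM log2 ratio was -0.05 with arrays scaled to a common median and -0.02 after quantile normalization. The difference was not tested in any of the 3, as each condition has 1 array, and apart from ALDH1A3 in SCM no ratio behind them reached 2-fold.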

How the results depend on the processing

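With 4 comparisons, 10 genes and 7 alternatives, 272 of 280 log2 ratios kept their side of 2-fold, 6 newly passed it and 2 no longer did. Many of the 280 could not move. PROM1 and ALDH1A1 stayed at 0 wherever a floor was set. Other ways to join probe sets cannot change a gene with 1 probe set, and other floors cannot change a gene above them. The 272 is thus not a measure of stability. The sign changed in 3, all near 0 and for PIAS1 shRNA2 over control shRNA in DMEM, and in 0 of those at 2-fold. They were ALDH1B1 (0.00 to -0.05 with common-median scaling and -0.02 with quantile normalization) and CD44 (0.14 to -0.015 with the mean of probe sets). Without a floor, the number of the 10 genes at 2-fold became 2 in DMEM (PROM1 at 1.82 and ALDH1A1 at 3.29) and 2 in SCM (ALDH1A3, and ALDH1A1 at -1.07) for PIAS1 shRNA2 over control shRNA. PROM1 then reached 3.17 for SCM over DMEM in control shRNA cells and ALDH1A1 -3.87 in PIAS1 shRNA2 cells, all of them ratios of signals under the floor. Scaled to a common median, ALDH3A2 was 0.95 in control shRNA cells; with the mean of probe sets, ALDH1B1 was -0.92 there and CD44 1.05 in PIAS1 shRNA2 cells. ALDH1A3 with PIAS1 shRNA2 in SCM stayed past 2-fold under all 7, but most of these could not move it. Its only probe set lies above every floor tried. Just common-median scaling, at 1.12, and quantile normalization, at 1.10, could change it. Over all genes, PIAS1 shRNA2 calls in DMEM, 126 higher and 67 lower, became 1248 and 850 without a floor, 39 and 28 with a floor at the 95th percentile and 31 and 23 with one at the highest array median. In SCM, 196 and 126 became 1012 and 1021, 101 and 57, and 81 and 47. SCM over DMEM calls, 959 and 975 in control shRNA and 994 and 948 in PIAS1 shRNA2 cells, became 2216 and 1618, and 1978 and 1778, without a floor. With a floor at the highest array median, 959 and 975 became 631 and 798, and 994 and 948 became 662 and 752. No paired analysis was possible because each condition has 1 array and so no replicates to pair. A fit of shRNA and medium as additive terms, with 1 residual degree of freedom, was not run. With 1 array per condition none could be left out. Signals near background limit PROM1 and ALDH1A1, and in part EPCAM, whose DMEM signals were 547 and 486. With a floor at the highest array median, 605, its SCM over DMEM log2 ratio went from 0.96 to 0.82 in control shRNA cells. In PIAS1 shRNA2 cells it went from 0.78 to 0.46. Genes read by 1 probe set, such as ALDH1A3, EPCAM and ALDH2, have no second reading.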
